A study of Mus musculus with 8 samples.

Results

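Cytochrome c oxidase, complex IV of the respiratory chain, is built with tissue-specific versions of some of its small subunits. The 9 genes described here encode the paired versions of subunits IV, VIa, VIIa and VIII. They were taken by symbol from the 23158 gene symbols of 3 expression tables. Cox6a2, Cox7a1 and Cox8b are the muscle (heart and skeletal muscle) isoforms, Cox6a1, Cox7a2, Cox8a and Cox4i1 the ubiquitous ones, and Cox7a2l and Cox4i2 are relatives with special roles. The genes were selected on measured values of these same libraries, the knockout ratios in which Cox6a2 and Cox7a1 had already been seen to be low. All values below are therefore a description, and no p-value is given.

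RNA came from primary mouse myoblasts grown out of satellite cells, the stem cells of muscle, of mixed B6/129 mice. The cells were grown with 20% fetal calf serum and 2.5 µM 4-hydroxytamoxifen, sorted for a red reporter and differentiated for 24 h. The libraries were female WT (Pax7-CreER, Rosa26-Floxed-TdTomato, 1 library), female KO (the same alleles with UTX-Floxed, 1 library), male WT and male KO (1 library each), and female Ctrl-KI and female KI (2 libraries each). Genotype details of the last 4 groups and the ages of the mice are not given in the labels used here, and neither is what the KI allele changes. The protocols attached to the samples name knockout and WT cells with the reporter, both exposed to tamoxifen, and do not name the KI lines. Pax7-CreER restricts deletion to cells that expressed Pax7 while tamoxifen was present. Whether the libraries of a group come from separate animals is not stated. UTX, encoded by Kdm6a, removes methyl groups from lysine 27 of histone H3.

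Complex IV passes electrons from cytochrome c to oxygen and pumps protons across the inner mitochondrial membrane. Its catalytic core is encoded in mitochondrial DNA, and nuclear subunits surround the core and tune its activity and stability. As muscle differentiates, the muscle isoforms of subunits VIa, VIIa and VIII are added to, or take the place of, the ubiquitous isoforms. Cox4i2 belongs to lung and to cells of the vessel wall, and Cox7a2l helps to join complex III to complex IV in supercomplexes.

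Values are FPKM, by definition fragments per kilobase of transcript scaled to the mapped fragments of a library. With this unit 2 genes of one library can be set side by side. How the libraries were scaled to each other is not stated. Each value has a deposited lower and upper confidence bound, given below as an interval. Ratios are log2((mutant + 1)/(control + 1)) within a table. A gene counts as tested with at least 1 FPKM in 1 column and as called with at least a 2-fold difference, which left 12344 tested genes in the female KO, 11440 in the male KO and 11084 in the KI table. The KI table holds 1 pooled value per group. Read depth is unknown, and the interval of a tested gene spanned a median of 118% of its value in female WT, 165% in male WT and 39.7% in Ctrl-KI. Kdm6a, counted over its whole length, read 20.8 and 16.9 FPKM in WT and KO females, 7.87 and 2.08 in WT and KO males, and 12.8 and 13.2 in Ctrl-KI and KI. These values check the deletion only weakly. Of 12 myogenic markers, all reached 1 FPKM in every column except Myh3 in male WT, where it is merged with Myh4 and was not estimated.

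Cox6a2, the muscle isoform of subunit VIa, had the lowest knockout ratio of the 9 genes, in males. Female WT cells had 135 FPKM (interval 62.0 to 208) and female KO cells 46.5 (19.1 to 74.0). Male WT cells had 166 FPKM (48.0 to 285) and male KO cells 8.83 (0 to 18.7). In the KI table it was 115 FPKM in Ctrl-KI (92.3 to 137) and 77.4 in KI (62.3 to 92.5). All mutant columns were below their own controls, and the male pair was the only one in which the 2 intervals did not meet. In the KI table the intervals met only at their edges. The log2 ratios were -1.52 in females, -4.09 in males and -0.56 in KI. In the male table only 10 of the 11440 tested genes had a lower ratio. In all tables the Cox6a2 transcripts lie within a longer assembled locus (mm9 chromosome 7, 135317460 to 135349880 in the female table) that overlaps those of Itgad and 4931431B13Rik, each at 0.595 FPKM or less in the 6 columns.

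Cox8b, the muscle isoform of subunit VIII, followed the same order within each table. Female WT cells held 245 FPKM (interval 114 to 376) and female KO cells 78.9 (29.6 to 128). Male WT cells held 101 FPKM (14.2 to 188) and male KO cells 19.6 (0 to 41.4). In Ctrl-KI and KI cells it was 133 (75.9 to 190.3) and 98.0 FPKM (52.2 to 144). Intervals overlapped within every table. Its log2 ratio was -1.62 in females, -2.31 in males and -0.44 in KI. The gene lies on mm9 chromosome 7 (148084841 to 148086345 in the female and male tables). In the KI table its assembled locus runs from 148068293 to 148086690 and overlaps Psmd13, at 78.2 and 68.99 FPKM, so how reads were divided between these genes is less certain there.

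Cox7a1, the muscle isoform of subunit VIIa, was the lowest of the muscle isoforms in each column. Female WT cells read 64.7 FPKM (interval 23.6 to 106) and female KO cells 17.2 (3.49 to 31.0), a log2 ratio of -1.85. Male WT cells read 7.86 FPKM (0 to 71.1) and male KO cells 2.65 (0 to 41.2), a log2 ratio of -1.28. The gene lies on mm9 chromosome 7 (30969190 to 30971049 in the female table). Its male locus is longer (30969048 to 30980698) and overlaps Capns1, a calpain subunit gene at 194 and 233 FPKM, and both Cox7a1 intervals start at 0. At a pseudocount of 5 FPKM the male ratio was -0.75, below the 2-fold threshold. Ctrl-KI and KI were nearly alike, at 10.3 (7.71 to 12.8) and 9.86 FPKM (7.38 to 12.3), with a log2 ratio of -0.05. With each library rescaled to the same total over loci with a symbol, that KI ratio was 0.04.

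Of the 3 muscle isoforms, 3 were at least 2-fold lower in the female KO column and 3 in the male KO column. Over all tested genes 4.4% were 2-fold lower in the female and 6.47% in the male table, and 2.14% of the 10398 genes with 1 symbol tested in both tables were 2-fold lower in each. Since the set was chosen with these contrasts known, nothing is read from the excess. None of the members that passed the filter was 2-fold higher, against 4.49%, 9.9% and 3.86% of tested genes in the female, male and KI comparisons. Cox4i2 did not pass it in the male and KI comparisons. Intervals were apart for 0 of 3 muscle isoforms in females and 1 of 3 in males, where 0.235% and 0.262% of tested genes had a lower mutant interval. In KI 0 of 3 reached 2-fold, with 0.893% of tested genes 2-fold lower and 3.73% with a lower interval. Higher mutant intervals were seen for 0.664%, 0.603% and 8.27% of tested genes, and for none of the members that passed the filter. The median log2 ratio of the 3 was -1.62 in females, -2.31 in males and -0.44 in KI, beside medians over all tested genes of -0.08, -0.02 and -0.04. In these bulk samples, fewer cells that express a gene and less RNA per cell cannot be told apart.

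The ubiquitous isoforms differed between the tables. Cox6a1 (mm9 chromosome 5, 115795663 to 115798964) read 140.5 FPKM in WT females (interval 65.2 to 216) and 62.6 in KO females (26.3 to 99.0). Cox7a2 (chromosome 9, 79603048 to 79607660) was 154 and 92.8 FPKM and Cox8a (chromosome 19, 7289648 to 7292106) 314 and 169. Cox4i1, the main isoform of subunit IV (chromosome 8, 123192190 to 123198109), was 402 and 205 FPKM. All 4 were lower in the KO column, with log2 ratios from -1.15 for Cox6a1 to -0.72 for Cox7a2, a median of -0.93, and intervals overlapping for each. Cox6a1 was the only one past 2-fold, and with values rescaled over loci with a symbol its ratio was -0.98. Over all tested genes in that table, 56.7% were below WT and 4.4% were at least 2-fold lower.

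In males the ubiquitous isoforms lay much closer together in WT and KO. Cox6a1 was 248 FPKM in WT (73.7 to 423) and 259.9 in KO (77.5 to 442). Cox7a2 was 214 and 163 FPKM, Cox8a 616 and 561, and Cox4i1 496 and 434. Of all tested genes in males, 6.47% were 2-fold lower and 9.9% 2-fold higher, against 0 of these 4 isoforms. Their log2 ratios ran from -0.39 for Cox7a2 to 0.07 for Cox6a1. Their median was -0.16, or 0.0035 with values rescaled over loci with a symbol, which also put Cox8a at 0.03. Over all loci, with or without a symbol, Cox6a1 was at -0.72. In the KI table the ratios ran from -0.33 to -0.12 with a median of -0.21. There Cox6a1 was 227 and 208 FPKM, Cox7a2 208 and 173, and Cox4i1 477 and 429. Cox8a is merged with Otub1 in that table (7272696 to 7293586), at 675 and 538 FPKM for both genes together. Cox4i1 was the most abundant of the 9 genes in both columns of the female KO table, and Cox8a in the male and KI columns, the latter together with Otub1.

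**Figure D1:**
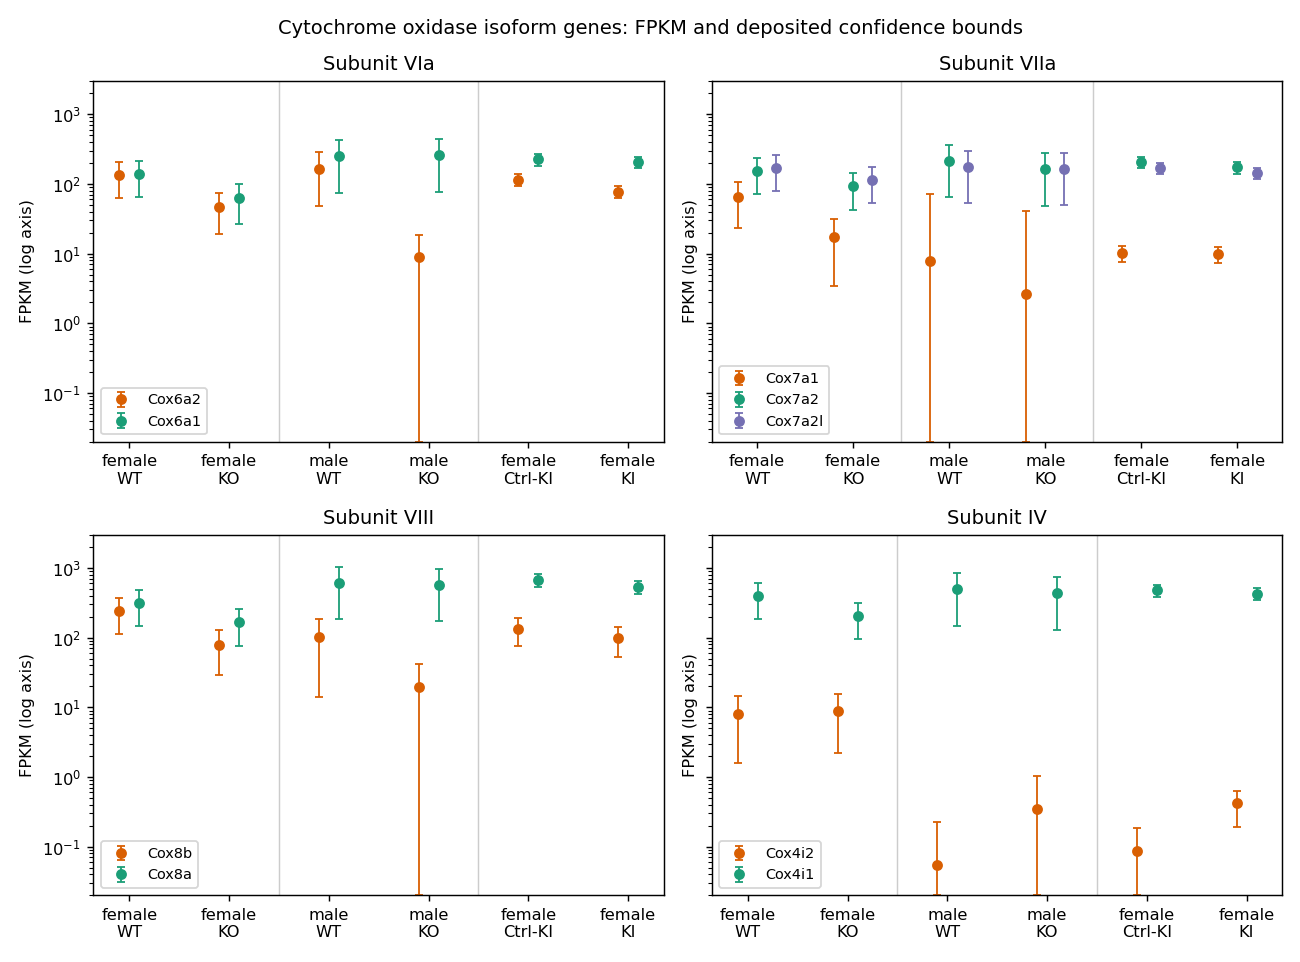
FPKM of the 9 genes on a log axis in the 6 columns (1 library each for the female and male columns, 1 pooled value each for Ctrl-KI and KI), with the deposited confidence bounds as bars; bars that reach the lower edge extend to 0. In male KO, Cox6a2 stands at 8.83 FPKM while Cox6a1 stands at 259.9, and Cox4i2 is under 1 FPKM outside the female WT and KO columns.

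The share of the muscle isoform in the summed FPKM of its pair does not depend on how a library is scaled. For subunit VIa, Cox6a2 made up 49.0% of the pair in WT females and 42.6% in KO females. In males the share was 40.1% in WT and 3.29% in KO. In Ctrl-KI and KI it was 33.6% and 27.1%. The male KO column was the low one, and with bounds set against each other (the lower bound of one isoform with the upper bound of the other) its share could reach 19.5%, while that of male WT could be as low as 10.2%. These extremes overlap in every table.

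For subunit VIII, the Cox8b share was 43.8% in female WT and 31.8% in female KO. In males it was 14.1% in WT and 3.37% in KO. In Ctrl-KI and KI it was 16.5% and 15.4%, but there Cox8a is merged with Otub1, so Cox8b is set against both genes together. For subunit VIIa, the Cox7a1 share was 29.7% and 15.7% in female WT and KO, 3.55% and 1.60% in male WT and KO, and 4.70% and 5.40% in Ctrl-KI and KI. With opposite bounds the male Cox7a1 share could run from 0 to 52.5% in WT and from 0 to 46.1% in KO. At the male locus, which overlaps Capns1, this share was thus hardly estimated. In female WT the Cox7a1 share could be as low as 9.15%. By the point values alone, female WT held the highest muscle share of all 3 pairs. Its level was estimated in another table than those of the male and KI columns, and no level was compared by a test across tables.

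**Figure D2:**
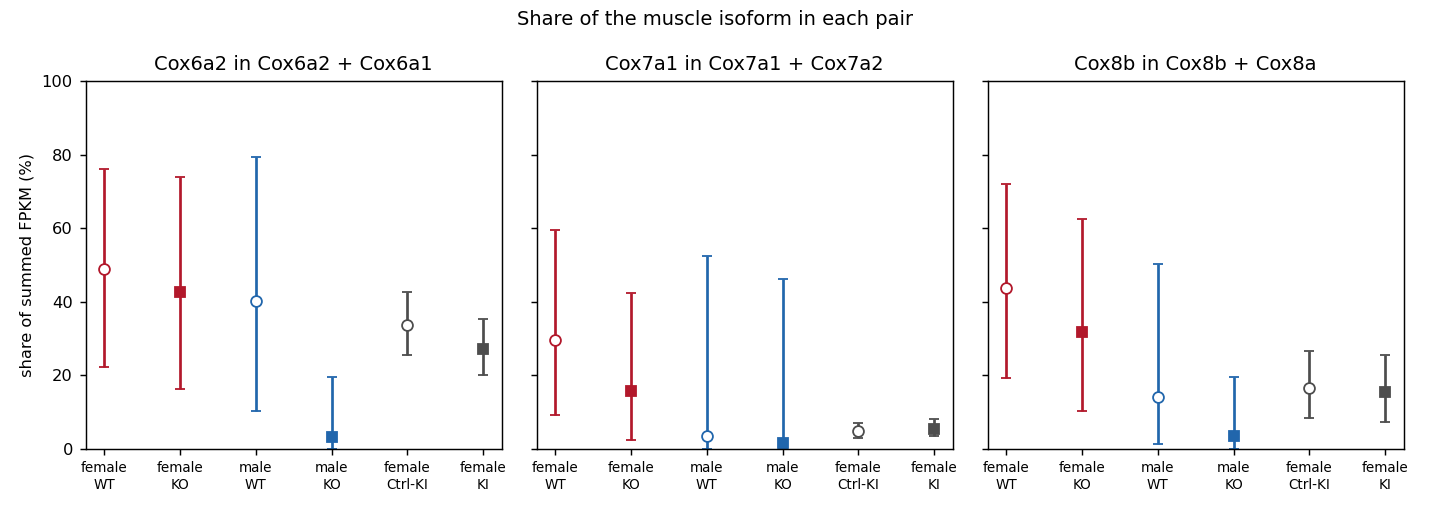
Share (%) of the muscle isoform in the summed FPKM of Cox6a2 and Cox6a1, Cox7a1 and Cox7a2, and Cox8b and Cox8a; open circles are control and filled squares mutant columns, and bars run between the shares given by opposite deposited bounds. The Cox6a2 share is 40.1% in male WT and 3.29% in male KO, beside 49.0% and 42.6% in female WT and KO. In Ctrl-KI and KI, Cox8a is merged with Otub1.

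The shift within a pair is the log2 ratio of the muscle isoform minus that of the ubiquitous one. It gives the change of the muscle isoform relative to its partner. The shift alone does not tell whether the partner was lower too, since a change common to both cancels. For Cox6a2 against Cox6a1 it was -0.36 in females, where both genes were lower, and -4.16 in males, where Cox6a1 was not. For Cox8b against Cox8a it was -0.73 in females and -2.18 in males. For Cox7a1 against Cox7a2 it was -1.13 in females and -0.89 in males, and these passed or missed 2-fold with the pseudocount: at 5 FPKM the female value was -0.95 and at 0.1 FPKM the male value was -1.14. At 5 FPKM the male value was -0.37. In KI the shifts were -0.44, -0.11 and 0.21 for subunits VIa, VIII and VIIa, that of VIII with Cox8a merged with Otub1. The difference between the sexes was not tested, since each sex has 1 library per group.

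The summed FPKM of a pair gives the combined RNA level of both isoforms, and protein was not measured. For subunit VIa the sum was 275 FPKM in WT and 109 in KO females, and 414 in WT and 269 in KO males. The log2 ratio of that sum was -1.33 in females and -0.62 in males, compared with -4.09 for Cox6a2 alone in males. For subunit VIII the sums were 559 and 248 FPKM in females and 718 and 581 in males, WT first. For subunit VIIa they were 218 and 110.0 in female and 222 and 166 in male cells. In the KI table the log2 ratios of the sums were -0.26, -0.35 and -0.26 for VIa, VIII and VIIa. The sum for VIII includes Otub1 there.

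RefSeq start sites of the GRCm38.p6 build, a different build from the mm9 of the expression tables, were matched for 6 of the 9 genes, all but Cox6a2, Cox4i1 and Cox4i2. The 250 bases before the start site are shown for the muscle and ubiquitous members of subunits VIII and VIIa, because within these pairs the muscle member had the lower knockout ratio. Capitals mark the part of a motif match before the start site, an E-box in Cox8b and the first bases of an ETS site in Cox8a. Windows are Cox8b chr7:140900447-140900696 (minus strand), Cox8a chr19:7217617-7217866 (minus), Cox7a1 chr7:30183921-30184170 (plus) and Cox7a2 chr9:79759854-79760103 (minus).
Cox8b: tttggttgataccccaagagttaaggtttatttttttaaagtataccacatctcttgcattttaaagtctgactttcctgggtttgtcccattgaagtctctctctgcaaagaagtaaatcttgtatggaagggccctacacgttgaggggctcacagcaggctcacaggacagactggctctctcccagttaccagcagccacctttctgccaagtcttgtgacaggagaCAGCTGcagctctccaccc
Cox8a: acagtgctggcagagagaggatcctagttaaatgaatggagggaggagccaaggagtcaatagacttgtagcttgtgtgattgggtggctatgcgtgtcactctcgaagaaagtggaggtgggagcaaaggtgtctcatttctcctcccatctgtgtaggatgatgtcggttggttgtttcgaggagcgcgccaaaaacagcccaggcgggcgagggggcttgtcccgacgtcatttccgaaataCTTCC
Cox7a1: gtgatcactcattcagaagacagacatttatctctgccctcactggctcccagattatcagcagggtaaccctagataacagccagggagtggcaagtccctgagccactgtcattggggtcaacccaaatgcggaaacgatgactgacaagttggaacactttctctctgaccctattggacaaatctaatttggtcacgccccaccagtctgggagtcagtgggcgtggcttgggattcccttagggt
Cox7a2: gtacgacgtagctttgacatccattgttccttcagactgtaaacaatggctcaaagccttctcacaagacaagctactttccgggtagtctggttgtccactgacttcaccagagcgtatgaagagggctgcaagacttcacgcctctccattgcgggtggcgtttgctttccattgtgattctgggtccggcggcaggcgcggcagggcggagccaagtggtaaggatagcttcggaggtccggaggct

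The upstream windows of the muscle isoforms held fewer CpG dinucleotides than those of their partners. Cox8b had 1 CpG and 47.2% G and C bases, and Cox7a1 had 4 and 51.2%. Cox8a had 11 CpGs, Cox7a2 14, Cox7a2l 13 and Cox6a1 26. The median of all 32851 windows in the table was 6 CpGs and 52.4% G and C. With 2 muscle isoforms this is a description of these promoters only.

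Motifs were searched on both strands from 250 bases before to 50 bases after the start site, and were picked with the sequences in view. Cox8b held CAGCTG, the E-box form bound by myogenic factors, at -19 to -14 and again at 17 to 22, and the TATA box letters TATAAA at 5 to 10, counted from 1 at the start site and downstream of it. CAGCTG occurs in 16.3% and TATAAA in 13.6% of all windows. Cox8a held CCGGAAG, the core of sites for ETS factors such as GABPA, at 2 places (-5 to 2 and 33 to 39), and Cox6a1 at 1 (-16 to -10). That motif is in 8.86% of windows. Cox6a1 also held GCATGCGC, part of the NRF1 site, in 2 overlapping matches on opposite strands within -162 to -153, against 2.71% of windows. Cox7a1, Cox7a2 and Cox7a2l held none of these, and none of the 6 genes held a MEF2 site, a CArG box, AANATGGC (YY1) or TNAAGGTCA (ERR factors), which are in 3.19%, 1.63%, 6.05% and 1.28% of windows.

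Cox7a2l, the supercomplex factor related to subunit VIIa, varied least in relative terms. Its gene (mm9 chromosome 17, 83901257 to 83913673) read 169 FPKM in WT and 113 in KO females, 178 and 166 in WT and KO males, and 168 and 145 in Ctrl-KI and KI. Its log2 ratios were -0.57, -0.10 and -0.22, with the male value at 0.07 when rescaled over loci with a symbol. Intervals of neighbouring columns overlapped throughout its order.

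Cox4i2 was read almost only in the female WT and KO columns. Its gene (mm9 chromosome 2, 152579909 to 152590773) read 8.02 FPKM in WT females (interval 1.60 to 14.4) and 8.95 in KO females (2.18 to 15.7), a log2 ratio of 0.14 beside -0.97 for its partner Cox4i1. In the male table it has 2 entries at one locus, at 0.0539 and 0.345 FPKM in WT and KO for one entry and at 0.106 and 0.0599 for the other. In Ctrl-KI and KI it was 0.0875 and 0.417 FPKM, with intervals apart. It passed the 1 FPKM filter in the female table alone. Its level there did not overlap with that of any other column.

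Markers of pericytes and smooth muscle, cells known for Cox4i2, are given beside it. Of 12 such markers, 9 reached 1 FPKM in both female columns, 5 in male WT, 6 in male KO, 4 in Ctrl-KI and 9 in KI. Their summed level was 899 and 571 FPKM in WT and KO females, 2104 and 867 in WT and KO males, and 2354 and 2032 in Ctrl-KI and KI. Most of each sum was the actin gene Acta2, which early myotubes also express, so the sum did not follow Cox4i2. Abcc9 did not set the female columns apart either, at 14.2 and 6.41 FPKM in females, 14.9 and 2.73 in males, and 11.2 and 6.83 in Ctrl-KI and KI. Rgs5 was 2.86 and 2.31 FPKM in females, 2.06 and 6.40 in males, and 0.824 and 1.89 in Ctrl-KI and KI. Other markers differed between the tables. Ndufa4l2 read 96.6 and 95.9 FPKM in the female pair, 0.101 or less in both male columns and Ctrl-KI, and 6.14 in KI. Pdgfrb was 8.78 and 21.7 FPKM in the female columns, 0.269 and 0.655 in male WT and KO, and 0.442 and 26.7 in Ctrl-KI and KI. In the KI column Pdgfrb was thus high while Cox4i2 stayed under 1 FPKM. Also 2-fold higher in KI were Cspg4 (0.873 and 5.81 FPKM), Tagln (46.8 and 158.5) and Cnn1 (0.0275 and 1.13), the last also in male KO (0.0397 and 4.49). Higd1b, a defining pericyte gene, was at 0.164 FPKM or less everywhere, and the part of such cells in the Cox4i2 level was not tested.

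The list of other nuclear subunits of complex IV includes the isoforms of subunits VIb and VIIb and the testis gene Cox8c. Those that passed the filter were also lower in female KO than in WT. Of 10 genes, 8 passed the filter and all 8 were below WT, with log2 ratios from -1.09 to -0.70 and a median of -0.88. Over all tested genes 56.7% were below WT in that table. At least 2-fold lower were 2, Cox5b (259 and 121 FPKM) and the testis-type Cox6b2 (6.59 and 2.59), where 4.4% of all tested genes were. The Cox6b2 intervals were wide, 0.0678 to 13.1 in WT and 0 to 5.50 in KO. In males 7 of 8 were below WT, with a median of -0.25, where 51.6% of tested genes were. Cox6b2 was the exception, 2-fold higher at 1.53 and 4.16 FPKM, as were 9.9% of tested genes. In KI all 8 were below Ctrl-KI, from -0.26 to -0.06, as were 57.4% of tested genes. Cox7b2 and Cox8c were listed at 0 in every column.

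Of 26 assembly factors of complex IV, the proteins that insert copper and heme or build the core, 22 were found and passed the filter in each table. In females 19 of 22 were below WT, with a median of -0.63, and 3 were at least 2-fold lower. Over all tested genes 56.7% were below WT in females and 4.4% were 2-fold lower. The 3 factors were Cox20 (50.1 and 23.3 FPKM), the translational activator Taco1 (10.6 and 4.53) and Coa4 (4.55 and 1.77). In males the median was -0.22, and 1 of 22 was 2-fold lower, the copper chaperone Sco1 (14.7 and 6.69 FPKM), which is near the 6.47% of all tested genes. In KI the median was -0.05, or 0.04 when rescaled over loci with a symbol, and 0 of 22 reached 2-fold. Intervals overlapped for every assembly factor in all 3 tables.

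**Figure D3:**
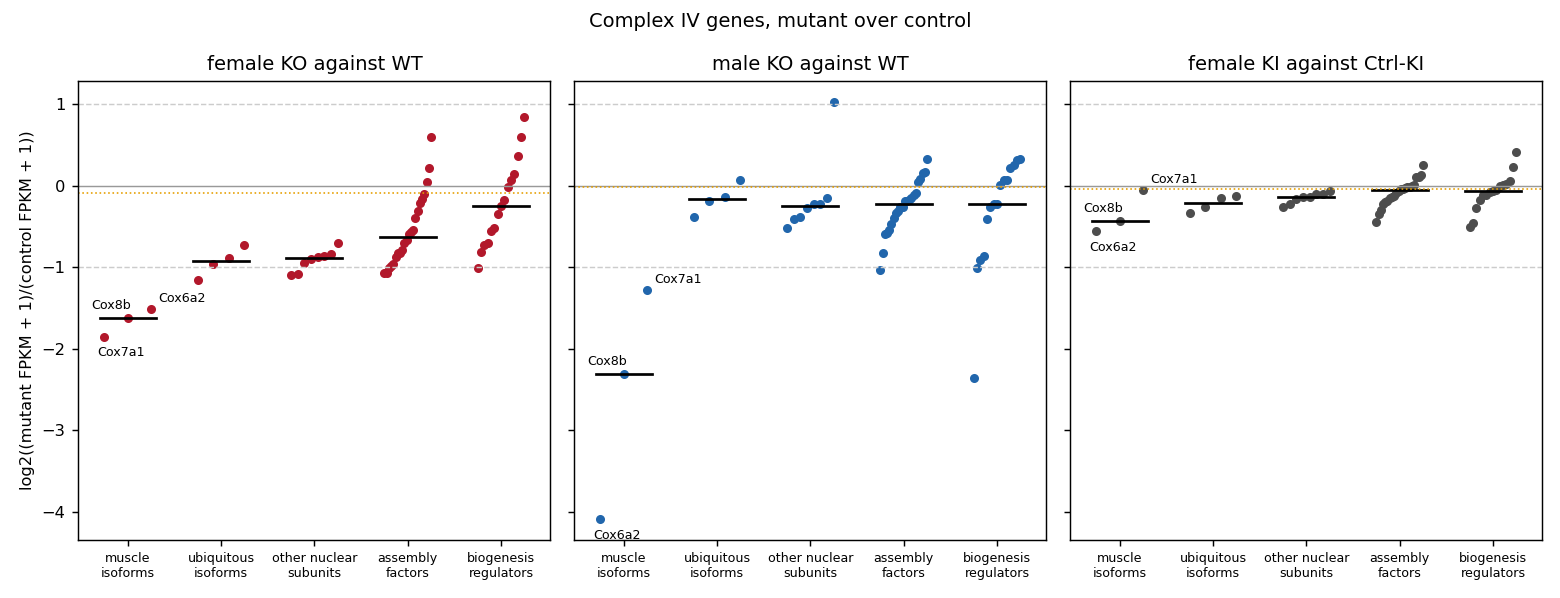
Log2 ratios of mutant over control for complex IV gene groups and regulators of mitochondrial biogenesis in the 3 tables; each point is a gene that passed the 1 FPKM filter, black bars are group medians, dashed lines mark 2-fold and the dotted line is the median of all tested genes. In the male table the muscle isoforms have a median of -2.31 and the other nuclear subunits -0.25, while in the female table the medians are -1.62 and -0.88.

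Regulators of mitochondrial gene expression did not stand apart by their counts. Of 16 listed, 15 passed the filter in each table, of which 10 were below control in females, 8 in males and 10 in KI. These are near the shares over all tested genes of 56.7%, 51.6% and 57.4%. The medians were -0.25 in females, -0.22 in males and -0.07 in KI, the last at 0.04 when rescaled over loci with a symbol. Esrrg, an estrogen-related receptor that drives oxidative genes in muscle, read 5.93 and 2.44 FPKM in WT and KO females and 5.51 and 0.274 in WT and KO males. Its log2 ratios were -1.01 and -2.35, with overlapping intervals. In KI it was higher than in Ctrl-KI, at 1.91 and 2.89 FPKM, with intervals apart. The related Esrrb was 2-fold lower in males (3.50 and 1.23 FPKM) and under 1 FPKM in both columns of the female KO table. In KI it was 1.55 and 0.798 FPKM, with intervals apart. Ppargc1a, the coactivator PGC-1 alpha, read 7.07 and 3.59 FPKM in WT and KO females, 1.54 and 2.18 in WT and KO males, and 2.40 and 1.47 in Ctrl-KI and KI, the last with intervals apart. Nrf1 (10.3 and 10.8 FPKM in females, 9.70 and 9.81 in males) and Gabpa (21.5 and 21.4, 19.8 and 20.9) differed little between WT and KO.

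Other metabolic enzymes with a muscle isoform allow the same comparison within a pair. A list of 10 genes of muscle metabolism also included Gyg, Mb and Fabp3, which have no paired isoform here. Of the 10, 8 were at least 2-fold lower in female KO and 7 in male KO, with medians of -1.68 and -1.45. Among all tested genes, 4.4% and 6.47% were 2-fold lower. In KI 0 of 10 reached 2-fold, with a median of -0.32. Over all tested genes there, 0.893% were 2-fold lower and 3.86% 2-fold higher. Lowest in females were creatine kinase Ckm (147 and 20.2 FPKM), phosphoglycerate mutase Pgam2 (134 and 32.4) and mitochondrial creatine kinase Ckmt2 (19.0 and 4.30). In males they were Ckm (109.98 and 6.82), myoglobin Mb (267 and 35.8) and Pgam2 (224 and 40.7). The shift of Pgam2 against the widespread Pgam1 was -2.62 in females and -3.03 in males, and that of glycogen phosphorylase Pygm against Pygb -2.14 and -2.84. Of 6 widespread isoforms that passed the filter, Ckb (30.5 and 12.9 FPKM) and Phka2 (60.5 and 26.2) were 2-fold lower in females. In males Phka2 was 2-fold lower (23.5 and 8.64 FPKM) and Pygb 2-fold higher (2.83 and 9.32), and in KI 0 of 6 reached 2-fold. Eno3 against Eno1 shifted by -1.57 and -0.65 and Ckm against Ckb by -1.63 and -3.19. Ckmt2 has no shift, because its partner Ckmt1 was at 0.207 FPKM or less in all 6 columns. The adenine nucleotide carrier Slc25a4 against Slc25a5 shifted by only -0.22 and -0.06, and the phosphorylase kinase subunit Phka1 against Phka2 by 0.54 and 0.82. The Cox6a2 shift of -4.16 in males was the lowest of the pairs in which both genes passed the filter, while its female value of -0.36 was closer to 0 than those of all pairs but Slc25a4.

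**Figure D4:**
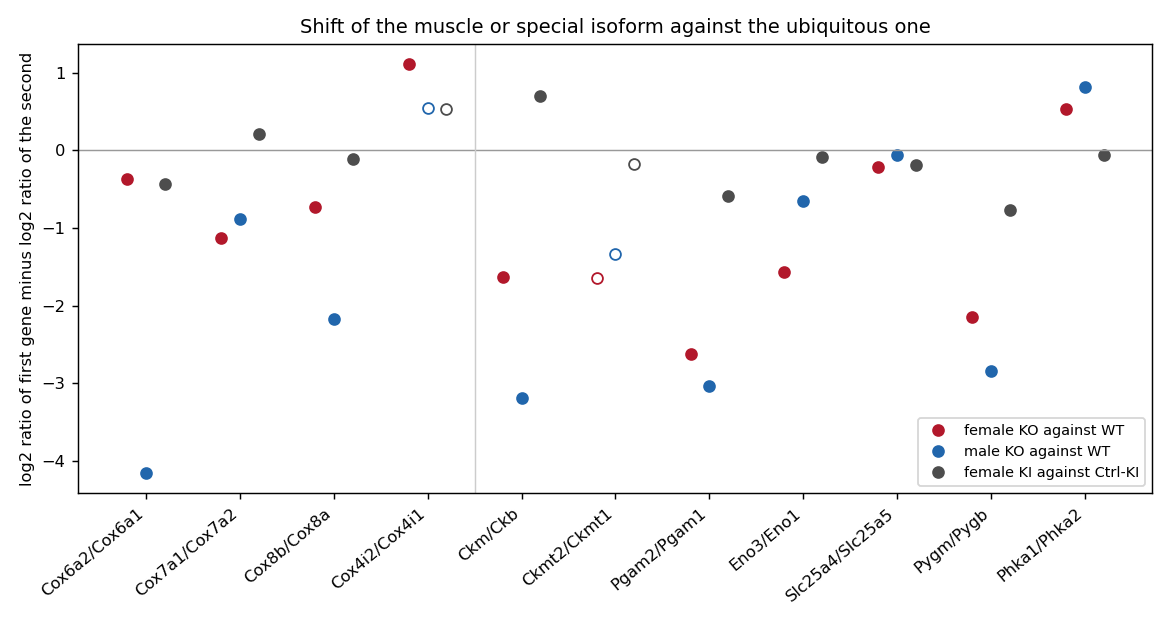
Shift of the first gene of each pair against the second (difference of their log2 ratios) in the female KO, male KO and KI tables; open points mark pairs with a gene under 1 FPKM in both columns. Cox6a2 against Cox6a1 is at -4.16 in males and -0.36 in females, whereas Pgam2 against Pgam1 is at -3.03 and -2.62. In the KI table Cox8a is merged with Otub1.

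The genes whose 3 ratios lay nearest to those of Cox6a2 were sought among 7087 other genes with 1 symbol and at least 5 FPKM in 1 column of each table, by Euclidean distance over the 3 log2 ratios. The nearest was the adhesion receptor Gpr56, at a distance of 0.67, with ratios of -1.12 in females, -3.59 in males and -0.38 in KI. Next came the transcription factor Mafa (-1.69, -3.04 and -0.43), the muscle LIM protein Csrp3 (-1.16, -3.02 and -0.52), the myosin chaperone Unc45b (-1.49, -2.90 and -0.72) and Gm14635 (-0.97, -3.08 and -1.02). Cox8b ranked 52 at a distance of 1.78, Cox7a1 288, and Cox6a1 3122 at a distance of 4.19. With 3 values per gene this order is a description.

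Markers of other cell types are given as whole lists beside the muscle isoforms. Of 8 fibro-adipogenic markers, 6 reached 1 FPKM in female WT and KO, and their summed level was 231 and 556 FPKM. In males 2 and 3 reached 1 FPKM (sums 18.5 and 66.6), and in Ctrl-KI and KI 1 and 7 (sums 10.3 and 311), with Lum listed at 0 in both male columns and in Ctrl-KI. The mutant columns held the higher sums in all 3 tables, but most of each sum was the collagen genes Col1a1 and Col3a1. In males Col3a1 alone was 16.4 and 59.1 FPKM, while Pdgfra, Dcn, Dpt, Fap and Lum stayed under 1 FPKM. Over all tested genes 4.49%, 9.9% and 3.86% were 2-fold higher in the female, male and KI comparisons. At least 2-fold higher were Pdgfra, Dcn and Col1a1 in female KO (log2 ratios 2.09, 2.06 and 1.35) and Ly6a and Col3a1 in male KO (1.71 and 1.79). In KI they were Col1a1, Dcn, Col3a1, Fap, Dpt and Ly6a, from 6.72 for Col1a1 to 1.35 for Ly6a.

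The summed level of 8 endothelial markers was 18.1 and 31.2 FPKM in WT and KO females, 1.35 and 70.2 in WT and KO males, and 2.28 and 9.35 in Ctrl-KI and KI. Emcn, Cdh5 and Eng were 2-fold higher in male KO (log2 ratios 5.34, 3.68 and 2.73), as was Pecam1 (0.0510 and 3.20 FPKM). Eng was also 2-fold higher in KI (log2 ratio 1.47). Most of the male KO sum was Emcn, at 40.6 FPKM. The rest of the list, Kdr, Flt1, Tek and Tie1, was at 0.380 FPKM or less in both male columns. The shares of 2-fold higher genes over all tested genes were 4.49% in females, 9.9% in males and 3.86% in KI. The 7 immune markers summed to 8.54 and 15.4 FPKM in females, 392 and 494 in males and 357 and 386 in Ctrl-KI and KI, the sums of the male and KI tables being mostly Cd68 merged with Eif4a1 and Senp3. Csf1r was 2-fold higher in female KO (0.477 and 2.58 FPKM). Lyz2 was 2-fold higher in male KO (0.681 and 7.94) and in KI (0.282 and 31.0, intervals apart). Ptprc, the marker of all white blood cells, was at 0.224 FPKM or less in every column.

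The muscle isoforms are also found in heart and brown fat. The 8 cardiomyocyte markers summed to 1118 and 491 FPKM in females, 1557 and 325 in males and 1552 and 1224 in Ctrl-KI and KI, nearly all of it Tnnt2, which developing skeletal muscle also expresses. Tnnt2 was 2-fold lower in both knockouts (log2 ratios -1.19 and -2.27). Of the others, Tnni3 reached 2.25 and 2.13 FPKM in females, Nppb 1.05 in female KO, Myh6 6.97 in KI and the locus merging Tnni3 with 6030429G01Rik 1.36 in male KO. Myl7 was listed at 0 in every column and Nkx2-5 was at or under 0.0194. The 9 adipocyte and brown fat markers summed to 27.8 and 35.7 FPKM in females, most of it Fabp4 (25.6 and 33.4), to 4.07 and 6.82 in males, and to 5.53 and 3.35 in Ctrl-KI and KI. Fabp4 was 2-fold higher in male KO (0 and 1.50), Dio2 ran from 1.18 to 3.59 FPKM and Elovl3 from 0.106 to 2.22. Cidec was at 0 in every column, Plin1 at or under 0.00639 and Ucp1 at or under 0.429.

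Of the myogenic markers that passed the filter, 5 of 12 were at least 2-fold lower in females, 6 of 11 in males and 0 of 12 in KI, beside 4.4%, 6.47% and 0.893% of all tested genes. Their median log2 ratios were -0.79, -1.83 and -0.22. The 5 in females were Tnnc2, Atp2a1, Acta1, Mymk and Des, from -2.56 for Tnnc2 to -1.19 for Des. In males the lowest were Tnnc2, Acta1 and Mymk (-3.44, -2.56 and -2.37), and Pax7, the satellite cell factor, was 2-fold higher (5.82 and 16.3 FPKM). The summed level of the myogenic markers was 8226 in WT and 3539 FPKM in KO females, and 12525 and 10844 in Ctrl-KI and KI. In males it was 13835 and 4131 FPKM, the WT sum without Myh3 and the KO sum with Myh3 merged with Myh4 (244 FPKM). The part of other cell types, and of the share of myogenic cells, in the lower muscle isoform levels was not tested.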

How the data were processed

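The authors deposited 3 gene tables in the Cufflinks tracking layout, per the file headers, giving for each of 2 columns the FPKM, its confidence bounds and a status. No source used here states the level of these bounds or how libraries were scaled to each other. Per the submitters' processing notes the build was mm9, and the tools named, without role or order, include Cufflinks 2.2.1, Cuffdiff, TopHat2 2.0.12 and Bowtie2 2.2.4. Which annotation was used is not stated. A column is 1 library in both KO tables and pools 2 libraries in the KI data.

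Groups came from the sample titles. Loci without a symbol (0 in the female, 5680 in the male and 5971 in the KI table) or with a status other than OK in either column were not counted as tested. Summed levels of marker lists and counts of markers reaching 1 FPKM used every locus found, whatever its status. In males these included Tagln (83.4 and 124 FPKM) and Myh3 merged with Myh4, which were not tested. A gene with several loci was represented by the one with the highest summed FPKM (the highest control FPKM where tables were joined by symbol), and loci with joined symbols were kept and named as merged. Starts are printed 1 higher than in the files, on the assumption that they count from 0. Strand is not stated, so values of overlapping genes and close paralogues are uncertain. With 1 column per group there was no test across samples. Ratios, 2-fold calls, shares and shifts were computed in python 3.11.15 with pandas 2.3.3 and numpy 2.4.6, and the calls were checked on simulated data. The mitochondrially encoded subunits and 4 assembly factors were not analysed here.

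The members, gene lists and isoform pairs were chosen with earlier results of these data known. Named are all 9 members, all pairs, Kdm6a, the 5 genes nearest to Cox6a2, and list members past 2-fold in a table (where more than 6 passed, the 3 with the largest change in each direction). Other genes named were chosen after their values were seen. Alternatives were other pseudocounts, filters, scalings, statuses, merged loci and deposited intervals.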

Additional observations from a re-analysis of the deposited data

Results flagged for a closer look

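Among the 9 members, and the genes past 2-fold of the complex IV and regulator lists, 2 stood on opposite sides of WT in female and male knockout cells. Cox6a1, the ubiquitous isoform of subunit VIa, had a log2 ratio of -1.15 in females and 0.067 in males. Its male levels were close, at 248 FPKM in WT (73.7 to 423) and 259.9 in KO (77.5 to 442). That male ratio turned negative with values rescaled over all loci, so its sign depends on the scaling. Cox6b2, a low subunit gene, had a log2 ratio of -1.08 in females and 1.03 in males. Its intervals overlapped in both tables and started at 0 in both male columns. With 1 library per group and sex, the difference between the sexes was not tested.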

How the results depend on the processing

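No paired analysis was possible because the replicate numbers occur only in Ctrl-KI and KI, whose libraries are pooled into 1 column each. For the same reason no replicate could be left out. Rescaling over loci with a symbol moved the median of all tested genes to 0.10 in females, 0.15 in males and 0.06 in KI. Over all loci it moved to -0.70 in males and -0.77 in KI, where loci lacking a symbol took up 72.8% and 86.1% of all FPKM (male WT and KO), and 57.1% and 77.6% (Ctrl-KI and KI).

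Of the members' groups and pairs, the muscle isoform median kept its direction under every alternative that gave a value, as did the shifts of Cox6a2 and Cox8b. With merged loci left out, the KI table gives no Cox8b shift, since Cox8a is merged there. The Cox7a1 shift was -0.95 in females at a pseudocount of 5 FPKM, and -1.14 in males at 0.1 FPKM and -1.05 when rescaled over loci with a symbol. The male ubiquitous median was 0.0035 with that scaling. Over all loci the KI medians were -1.26 for muscle and -1.04 for ubiquitous isoforms. The Cox6a1 ratio in males was -0.72 over all loci.

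Counts of genes 2-fold higher and lower were 554 and 543 in females, 1132 and 740 in males and 428 and 99 in KI. In females they were 938 higher at a pseudocount of 0.1, 196 and 246 at 5, and 1197 higher with either rescaling. In males they were 443 and 475 at a pseudocount of 5, 1799 higher over loci with a symbol, and 253 and 2521 over all loci. In KI they were 168 lower at 0.1, 177 and 47 at 5, 262 higher with a filter of 5 FPKM, 679 higher over loci with a symbol, and 196 and 1683 over all loci. The higher share of 2-fold calls in females was 50.5%, 63.2% with centred ratios and 73.7% rescaled, in males 60.5%, 48.3% at a pseudocount of 5, 71.6% and 9.12% with the rescalings, and in KI 81.2% and 10.4% over all loci. Intervals were apart for 82 higher and 29 lower genes in females, 69 and 30 in males and 917 and 413 in KI. The cause of these changes was not tested.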

Other observations

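In the KI comparison, no cytochrome oxidase member that passed the filter reached 2-fold. There, 4 other metabolic genes of the enzyme lists had deposited intervals apart, 3 lower and 1 higher. These lists held 10 genes of muscle metabolism and 6 widespread isoforms that passed the filter. Of all tested genes, 3.73% had a lower and 8.27% a higher interval in KI. The 1 higher gene is near that share, and nothing is read from it. Glycogenin, Gyg, which primes glycogen synthesis, was 90.4 FPKM in Ctrl-KI and 46.4 in KI cells, a log2 ratio of -0.95. Myoglobin, Mb, was 255 and 143 FPKM, a log2 ratio of -0.83, and the brain-type creatine kinase Ckb 69.03 and 44.8, a log2 ratio of -0.61. The brain-type glycogen phosphorylase Pygb was higher, at 2.73 and 4.19 FPKM, a log2 ratio of 0.48. Ckm was 143 and 152 FPKM in the same columns. These genes were picked after their values were seen, and the pooled columns give no replicate check.

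The heart myosin gene Myh6 was 0.258 FPKM in Ctrl-KI and 6.97 in KI cells, while Myl7 was listed at 0 in both columns.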
